A study of Mus musculus with 23 samples.

Results

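Glycolysis and the response to low oxygen were followed through 39 genes in 5 subcutaneous mouse tumor models and in cancer-associated fibroblasts (CAFs) sorted from 4 of them. The 39 genes were chosen by name, and for each the transcript with the largest mean value was used, as for all 24940 gene symbols of each table. The choice was made in each table separately. For 10 of the 39 the CAF table gave another transcript than the tumor table. These were Pfkm, Aldoa, Gapdh, Eno2, Ldhb, Slc16a3, Pfkfb3, Pfkfb4, Mxi1 and Higd1a. By role they comprise 2 glucose transporters, 9 genes of upper glycolysis, 6 of lower glycolysis, 4 genes that make or move lactate, 3 regulators of glycolytic flux, 4 genes of oxygen sensing and 11 other genes of the hypoxia response. All 39 were found in both tables and all 39 passed the filters on low values.

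The tumors grew in adult female C57BL/6 mice after 500000 cells of a syngeneic line had been injected under the skin of the flank. The lines were B16-F10 melanoma (B16), EO771.LMB breast cancer (EO771), LL/2 lung cancer (LL2), MC38 colon cancer and Pan02 pancreatic cancer, all without further treatment, and RNA came from pieces of 3 tumors per model, 15 in all. FAP+ CAFs, gated from the CD45- cells of dissociated EO771, LL2, MC38 and Pan02 tumors, gave 2 libraries per model, 8 in all, and no B16 CAFs entered the comparison. Each model is 1 transplanted line, so the line, its host response and the way its tumors were sampled or sorted cannot be told apart. The labels do not say which animals gave the libraries, so that p-values measure the spread between these samples. In whole tumors, fewer cells of a type and less RNA per cell cannot be told apart.

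Glycolysis splits glucose into pyruvate. Slc2a1 and Slc2a3 encode the transporters GLUT1 and GLUT3 that bring glucose into the cell, hexokinase traps it, phosphofructokinase is the main point of control, and lactate dehydrogenase interconverts pyruvate and lactate, which leaves or enters the cell through the monocarboxylate transporters encoded by Slc16a1 (MCT1) and Slc16a3 (MCT4). When oxygen falls, the prolyl hydroxylases encoded by Egln1 and Egln3 no longer mark the HIF alpha subunits for degradation, and the stabilised HIF proteins, encoded by Hif1a and Epas1, switch on glycolytic enzymes and genes such as Car9, Adm, Bnip3, Ndrg1 and Egln3 itself. Tumors are known both for glycolysis in the presence of oxygen and for poorly perfused regions in which this program runs.

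Tumor libraries held 10035173 to 21946486 counts, and CAF libraries an estimated 9270000 to 22850000 fragments, fewest in MC38 library 6. In both tables every library lay nearest to another library of its own model. Skeletal muscle markers summed to 1050 to 4094 CPM (counts scaled to library size) in 5 tumors (numbers 2 and 3 of LL2, 1 and 3 of MC38, and 1 of Pan02) and to at most 476.6 in the other 10. The 6 melanocyte markers summed to 10480 to 12750 RPKM (CPM per kilobase of transcript) in B16 tumors and to at most 20.7 elsewhere, and the 8 leukocyte markers to 207 to 353 in B16 against 332 to 2341 in the other models. The 6 epithelial markers, Krt8 among them, summed in the CAF libraries to 494 to 501 RPKM in EO771, 205 to 211 in LL2, 1.78 to 4.23 in MC38 and 836 to 1122 in Pan02, although all CAF libraries expressed the 8 fibroblast markers (941 to 6906 RPKM, lowest in MC38 library 6, where library 5 had 4695) and Ptprc, which encodes CD45, stayed at or below 0.947. In EO771 CAFs nearly all of the epithelial sum was Krt8 (492 to 495 RPKM), with Krt18 at 0.729 to 1.40. Epcam was low in all CAF libraries, from 0.188 RPKM in EO771 to 2.46 in LL2. The 8 leukocyte markers, Ptprc included, summed to 68 to 82 RPKM in EO771 CAFs and to 6.98 to 19.4 in the other CAF libraries. The fibroblast sum of Pan02 CAFs, 1901 to 2926 RPKM, was not above that of whole Pan02 tumors, 6302 to 7117, and Fap itself stood at 1.89 to 3.28 against 2.08 to 5.35. Much of this sum was Col1a1, at 795 to 1535 RPKM in Pan02 CAFs and 3457 to 4506 in Pan02 tumors. Other markers of the list had higher medians in Pan02 CAFs: Dcn (447 against 292), Pdgfrb (59.7 against 42.8) and Pdgfra (23.0 against 19.7). The tables were normalized separately, so these levels are only roughly comparable.

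HIF binds DNA at a short core motif, ACGTG or GCGTG, and promoters of 4 members that differed most between models or serve as their reference are shown with this core in capitals. Each runs 5′ to 3′ from 250 bases before to 50 bases after the transcription start, from RefSeq on GRCm38.p6, the assembly that mm10 names. The Ldha promoter lies at chr7:46845554-46845853 on the plus strand, that of Ldhb at chr6:142507908-142508207 on the minus strand, that of Egln3 at chr12:54203825-54204124 on the minus strand and that of Car9 at chr4:43506776-43507075 on the plus strand.
Ldha: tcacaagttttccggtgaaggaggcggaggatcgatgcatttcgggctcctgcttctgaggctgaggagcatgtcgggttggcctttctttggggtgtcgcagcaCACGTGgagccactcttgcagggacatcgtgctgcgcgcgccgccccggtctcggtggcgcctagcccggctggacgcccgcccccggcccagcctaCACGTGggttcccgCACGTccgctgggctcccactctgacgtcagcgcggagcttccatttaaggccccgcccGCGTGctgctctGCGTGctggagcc
Ldhb: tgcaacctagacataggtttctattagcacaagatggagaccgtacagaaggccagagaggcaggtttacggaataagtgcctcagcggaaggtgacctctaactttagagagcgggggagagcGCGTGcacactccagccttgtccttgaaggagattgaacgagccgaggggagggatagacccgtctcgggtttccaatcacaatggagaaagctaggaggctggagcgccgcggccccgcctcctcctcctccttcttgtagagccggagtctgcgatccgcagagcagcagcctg
Egln3: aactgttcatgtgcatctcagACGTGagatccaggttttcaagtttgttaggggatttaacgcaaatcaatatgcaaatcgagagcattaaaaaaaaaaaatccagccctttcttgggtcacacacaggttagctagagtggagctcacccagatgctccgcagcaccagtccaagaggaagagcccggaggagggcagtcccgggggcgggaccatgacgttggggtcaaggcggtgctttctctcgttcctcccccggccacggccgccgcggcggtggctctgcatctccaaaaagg
Car9: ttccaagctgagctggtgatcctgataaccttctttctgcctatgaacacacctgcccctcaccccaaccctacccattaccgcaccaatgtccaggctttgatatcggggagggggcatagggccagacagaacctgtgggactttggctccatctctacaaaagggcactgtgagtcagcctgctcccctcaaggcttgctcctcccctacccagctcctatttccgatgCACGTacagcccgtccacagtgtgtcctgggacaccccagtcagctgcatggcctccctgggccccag
Both strands were searched, so that CACGT and CACGC also count, and CACGTG, which reads the same on both strands, counts as 2 matches. Ldha had 7 matches and the other three 1 each. Of the 39 genes, 35 had a promoter in the RefSeq table, and 29 of these (82.9%) held at least 1 match, against 43.8% of all 32841 promoters of the same length. At least 3 matches were found in 13 members (37.1%), against 8.93% of all promoters. A match only says that these letters are present. The members were chosen as genes of glycolysis and hypoxia. The promoters compared were not matched for base composition, and the difference in shares was not tested.

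Among the tumors, 36 of the 39 genes differed between the 5 models (edgeR quasi-likelihood F test, Benjamini-Hochberg adjusted p under 0.05), which is near the background, since 91.1% of 15722 tested genes did. The 3 that did not were Pfkm (adjusted p = 0.297), Pfkfb3 (0.254) and Egln1 (0.12). In a second step each model was compared with the average of the remaining 4, and calls needed both an adjusted p under 0.05 and a change of 2-fold or more. In B16 tumors 11 members were called higher and 5 lower, where 13.1% and 19.6% of all genes were. The EO771 model had 5 higher and 4 lower (background 9.71% and 13.7%) and the LL2 model 3 and 3 (8.51% and 8.29%). For MC38 the counts were 3 and 4 (11.2% and 8.24%), and for Pan02 6 and 4 (18.8% and 7.93%). With total-count scaling in place of TMM the MC38 calls became 5 higher and 4 lower (55.6% higher instead of 42.9%), while those of Pan02 became 6 and 6 (50% instead of 60%). Among all called genes the share higher moved likewise, from 57.7% to 67.7% in MC38 and from 70.4% to 63% in Pan02. TMM shifted the median of all genes by -0.144 in MC38 and by 0.115 in Pan02 (log2) against total counts. The members' median log2 fold change was 0.49 for B16, 0.04 for EO771 and 0.05 for LL2, and -0.25 for MC38 and -0.12 for Pan02, against medians between -0.04 and 0.05 over all genes.

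**Figure D1:**
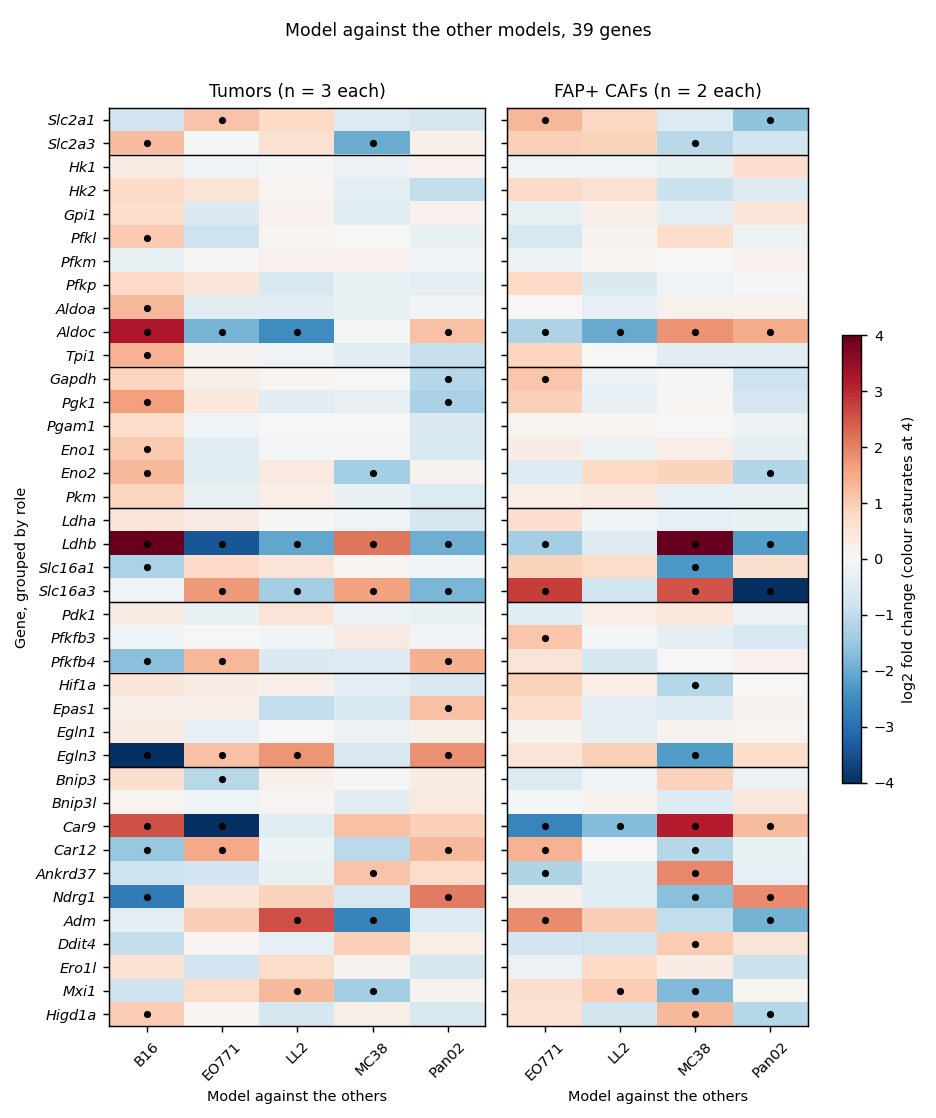
Log2 fold changes of the 39 genes, grouped by role, in the tumors of a model against the average of the other 4 models (left) and in its CAFs against the other 3 (right). Red is higher and blue lower, with the colour saturating at 4, and a dot marks a call (adjusted p under 0.05 and at least 2-fold). The column of B16 tumors is red through most enzymes of glycolysis and blue at Egln3 and Ndrg1. The largest change of a column is that of Ldhb in B16 tumors and MC38 CAFs, and of Car9 in EO771 tumors. It is that of Slc16a3 in EO771 and Pan02 CAFs, Adm in LL2 and MC38 tumors, Ndrg1 in Pan02 tumors and Aldoc in LL2 CAFs.

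B16 tumors stood apart in the glycolytic enzymes. Their mean was the highest of the 5 models for 16 of the 17 enzymes from hexokinase to lactate dehydrogenase, all but Pfkm. All 3 B16 tumors lay above all 12 other tumors in 13 of the 17, where 14.5% of all genes had this order. At an adjusted p under 0.05 alone 16 were higher and 0 lower (background 31.9% and 31.6%), 8 of them by at least 2-fold, and the median log2 fold change of the 17 was 0.86. The leukocyte marker sums of B16 tumors were low (207 to 353 RPKM). So were their fibroblast marker sums (62.7 to 237 RPKM against 423.5 to 7117 in the other models). The part of either in these values was not tested.

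Aldolase and triose phosphate isomerase, which split fructose bisphosphate and interconvert the products, were among the most abundant transcripts. Tpi1 stood at 1958, 1961 and 1957 RPKM in B16, at 642, 478 and 513 in Pan02, and between 697 and 1106 in the other 9 tumors. B16 was therefore far above every other tumor, and Pan02 below all. Against the other models B16 reached a log2 fold change of 1.38 (SE 0.11, adjusted p = 1.59e-07), and that of Pan02 was -0.93 (SE 0.13, adjusted p = 3.47e-05), short of 2-fold. Aldoa, the main aldolase, measured 2356, 2475 and 2190 RPKM in B16 against 767 to 1289 elsewhere (log2 fold change 1.29, SE 0.11, adjusted p = 3.01e-07).

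**Figure D2:**
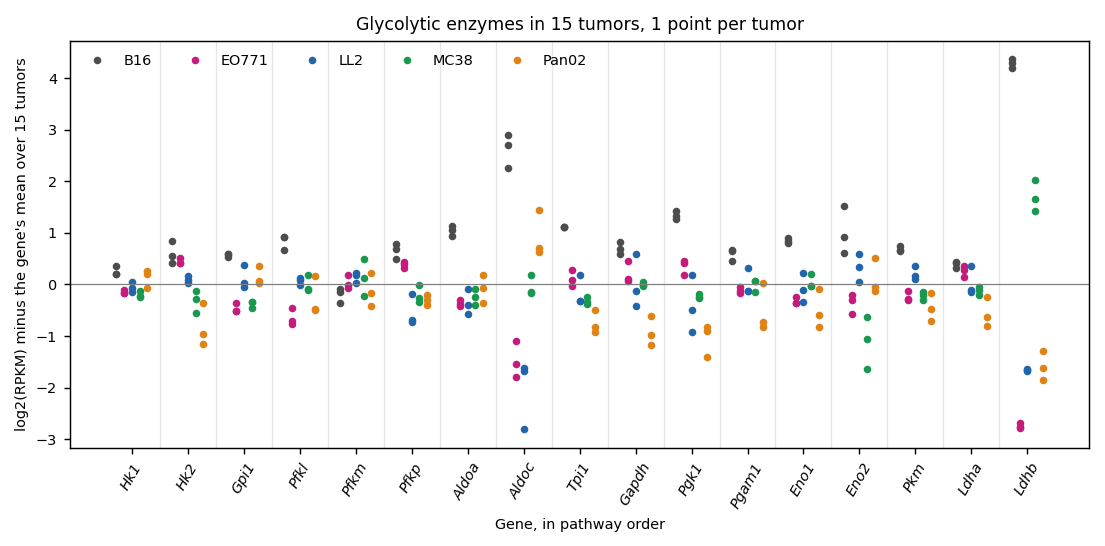
The 17 glycolytic enzymes in the 15 tumors, 1 point per tumor, as log2 RPKM minus the gene's mean over all tumors. The 3 B16 points lie above all others for 13 of the 17 enzymes, and Aldoc and Ldhb spread far more than the rest.

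Aldoc, the aldolase isoform known best from brain (chr11:78323073-78327778 in mm10), varied more than Aldoa. It stood at 59.0, 68.2 and 43.3 RPKM in B16, at 24.7, 14.1 and 14.9 in Pan02, at 8.14, 10.4 and 8.21 in MC38, at 4.23, 2.61 and 3.14 in EO771 and at 1.30, 2.86 and 2.96 in LL2. The first 3 models of this order were separated from each other and from the last pair without overlap, and neighbours differed (adjusted p = 0.000224, 0.00916 and 0.00181) except EO771 and LL2 (0.223). Against the other models B16 rose by 3.25 (SE 0.20) on the log2 scale, while EO771 fell by 1.85 (SE 0.27) and LL2 by 2.47 (SE 0.28). Pan02 was higher by 1.17 (SE 0.21, adjusted p = 0.000365), but by only 0.84 without Pan02 tumor 1, so that this call rests on that tumor.

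Lower glycolysis yields ATP and pyruvate. At an adjusted p under 0.05 alone all 6 of its genes were higher in B16 (background 31.9%), and 5 were lower in Pan02 (28.1%), all but Eno2. Pgk1, phosphoglycerate kinase, measured 194, 180 and 173 RPKM in B16 and 40.9, 27.3 and 38.7 in Pan02. EO771 lay between, at 99.1, 81.5 and 96.1, and MC38 (60.3 to 63.1) and LL2 (37.9 to 81.8) did not differ (adjusted p = 0.713). This gave a log2 fold change of 1.65 (SE 0.16, adjusted p = 8.5e-07) in B16 and -1.30 (SE 0.19, adjusted p = 5.95e-05) in Pan02. Eno2, the neuronal enolase, was high in B16 (6.31, 9.61 and 5.10 RPKM) and low in MC38 (2.17, 1.07 and 1.61), with all other tumors between 2.26 and 5.01. Its log2 fold changes were 1.29 (SE 0.21) and -1.35 (SE 0.25), and the B16 change was 0.995, just under 2-fold, without B16 tumor 2.

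The remaining B16 calls among the enzymes were Pfkl, the liver type phosphofructokinase (193 to 230 RPKM against 70.8 to 137 elsewhere, log2 fold change 1.04), and Eno1, the ubiquitous enolase (756 to 808 against 244 to 509, 1.04, or 0.996 without Pan02 tumor 2). Gpi1, Pfkp, Pgam1, Pkm, Gapdh, Hk1, Hk2 and Ldha were higher in B16 at the adjusted p by less than 2-fold, with log2 fold changes from 0.31 for Hk1 to 0.86 for Pkm. Pan02 was the low model: 10 of the 17 enzymes were lower at an adjusted p under 0.05 (background 28.1%) and the median log2 fold change was -0.55, with Hk2 at -0.998 (SE 0.15), just under 2-fold, and 35.1, 20.4 and 23.3 RPKM. Pan02 tumors also had the highest fibroblast marker sums (6302 to 7117 RPKM against 62.7 to 1804 in the other models) and epithelial marker sums (1350 to 2093 against at most 706), and their part in these values was not tested. Pfkm, the muscle phosphofructokinase, ran from 19.8 to 37.4 RPKM with every model overlapping, and its highest value was in MC38 tumor 3, which also had the most muscle marker counts; their part in it was not tested.

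Some of these enzymes have many near-identical copies in the genome, so their counts are uncertain. Of the windows of 50 bases in the transcript, 82.5% also occur in other genes for Gapdh, 72.2% for Eno1, 68.0% for Pgk1, 62.5% for Bnip3, 41.5% for Pgam1, 36.6% for Higd1a, 34.4% for Pkm, 27.0% for Ldhb, 25.3% for Gpi1 and 25.1% for Bnip3l, and at most 19.1% for the other members. Gapdh differed most between the tables. It was listed at 6.16 to 24.5 RPKM in tumors and at 512 to 1467 RPKM in CAFs, and its median was 55.1 times higher in CAFs than in tumors of the same 4 models, where that ratio ran from 0.43 to 2.27 for the other members (1.12 for Eno1, 1.79 for Pgk1 and 0.672 for Bnip3, which also share many windows). Within the tumors Gapdh was lowest in Pan02 (log2 fold change -1.15, SE 0.19, adjusted p = 0.00018) and highest in B16 (0.85, SE 0.17). The transcript used for Gapdh also differed between the tables. Why the tables differ was not tested.

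The glucose transporters ranked the models differently. Slc2a1 measured 338, 281 and 290 RPKM in EO771 and 268, 323 and 172 in LL2, against 75.5 to 161 in the other 9 tumors, so that EO771 and LL2 together stood above all others. EO771 was called higher (log2 fold change 1.13, SE 0.19, adjusted p = 0.000265), while LL2 reached 0.81 (SE 0.20). B16 was lower at -0.77 (SE 0.22, adjusted p = 0.00743). Slc2a3, the high-affinity transporter, was scarcer: 6.99, 6.36 and 7.58 RPKM in B16, 3.06 to 5.70 in EO771, LL2 and Pan02, and 1.44, 0.679 and 1.41 in MC38. B16 was above and MC38 below every other tumor, with log2 fold changes of 1.23 (SE 0.17, adjusted p = 2.33e-05) and -1.99 (SE 0.21, adjusted p = 5.04e-06).

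Ldhb separated the models more than any other member. The enzyme's B subunit, which favours the use of lactate, is encoded at chr6:142490249-142507957 in mm10, and its level was 118, 131 and 124 RPKM in B16, 17.1, 26.0 and 20.0 in MC38, 2.00, 2.02 and 2.03 in LL2, 2.08, 1.77 and 2.60 in Pan02 and 0.982, 0.919 and 0.943 in EO771. B16 was above MC38 and MC38 above the rest without overlap, EO771 was below all, and only Pan02 and LL2 did not differ (adjusted p = 0.678). On the log2 scale the change was 5.34 in B16 (SE 0.10, adjusted p = 1.31e-13), 2.14 in MC38 (SE 0.11) and -3.43 in EO771 (SE 0.17). Ldha, the A subunit, ranged only from 557 to 1313 RPKM, so Ldhb made up 8.92% of the summed Ldha and Ldhb RPKM in B16 (range 8.21 to 9.82), 2.29% in MC38 and at most 0.41% in any tumor of the other models.

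The lactate transporters had separate patterns. Slc16a3 (chr11:120949067-120959000), the exporter of glycolytic cells, measured 391, 352 and 368 RPKM in EO771 and 343, 385 and 321 in MC38. B16 stood at 124, 153 and 126, and LL2 (59.2, 76.3 and 67.0) and Pan02 (46.4, 47.3 and 64.2) were lowest. EO771 and MC38 overlapped (adjusted p = 0.671) and lay above all other tumors, and LL2 and Pan02 overlapped below all others (adjusted p = 0.0543). Against the other models the log2 fold changes were 1.70 in EO771, 1.60 in MC38, -1.36 in LL2 and -1.81 in Pan02 (SE 0.10 to 0.13, adjusted p at most 1.88e-06), and -0.13 in B16 (adjusted p = 0.35). Slc16a1, which carries lactate either way, was lowest in B16 at 27.2, 19.7 and 28 RPKM, below all other tumors (38.3 to 81.8), with a log2 fold change of -1.27 (SE 0.16, adjusted p = 1.14e-05). B16 tumors thus paired the highest Ldhb with the lowest Slc16a1.

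Of the flux regulators, only Pfkfb4 was called in a model. This kinase and phosphatase, which sets fructose 2,6-bisphosphate, the activator of phosphofructokinase, measured 11.4, 12.2 and 13.6 RPKM in EO771 and 10.3, 15.3 and 13.7 in Pan02. It stood at 3.53 to 5.53 in LL2 and MC38 and at 2.05, 2.61 and 2.40 in B16, without overlap between these 3 levels. The log2 fold changes were 1.33 (SE 0.13) in EO771, 1.42 (SE 0.13) in Pan02 and -1.66 (SE 0.16, adjusted p = 1.23e-06) in B16. Pfkfb3, its relative with the stronger kinase, ran from 7.83 to 16.5 RPKM with no difference between models that passed the test. Pdk1, a kinase that inhibits pyruvate dehydrogenase, ran from 13.0 to 31.1 RPKM. It passed the test in LL2, where it was higher by less than 2-fold (log2 fold change 0.51, SE 0.16, adjusted p = 0.0193).

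In oxygen sensing, Egln3 was the gene that set B16 apart. It measured 4.05, 5.73 and 4.80 RPKM in B16, 44.1, 33.4 and 27.1 in MC38, 120, 79.4 and 84.6 in EO771, 132, 164 and 96.6 in LL2 and 97.0, 107 and 198 in Pan02. B16 was below MC38 and MC38 below all others without overlap, while the top 3 models overlapped. The log2 fold change was -4.16 in B16 (SE 0.30, adjusted p = 5.81e-08), 1.81 in Pan02, 1.77 in LL2 (SE 0.20 each) and 1.19 in EO771 (SE 0.21, or 0.98 without EO771 tumor 1). Egln1, the main oxygen sensor of the family, stayed between 46.9 and 90.9 RPKM.

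Transcripts of the HIF subunits moved little by comparison. Hif1a ran from 58.6 to 72.6 RPKM in B16 and from 30.8 to 42.4 in Pan02, with log2 fold changes of 0.49 (SE 0.11, adjusted p = 0.00117) and -0.59 (SE 0.12, adjusted p = 0.000587). Epas1, which encodes HIF-2 alpha, went the other way in Pan02, with 10.3, 16.1 and 20.3 RPKM against 3.12 to 10.9 in the other 12 tumors, a log2 fold change of 1.19 (SE 0.25, adjusted p = 0.00117) that was 0.955 without Pan02 tumor 3. In LL2 Epas1 measured 4.55, 3.12 and 6.22 RPKM and its change of -0.999 (SE 0.30, adjusted p = 0.015) sat at the 2-fold threshold. HIF is controlled mainly through its protein, which was not measured here.

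The other 11 genes of the hypoxia response did not move as a block. Together with Egln1 and Egln3, 13 genes, they gave 2 higher and 3 lower calls in B16 (background 13.1% and 19.6%) and 2 and 2 in EO771 (9.71% and 13.7%). The counts were 3 and 0 in LL2 (8.51% and 8.29%), 1 and 2 in MC38 (11.2% and 8.24%), and 3 and 0 in Pan02 (18.8% and 7.93%), and each model was highest for at least 1 of them.

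Car9 and Car12 encode carbonic anhydrases that acidify the space around the cell. Car9 measured 55.3, 67.5 and 55.8 RPKM in B16, 38.6, 19.2 and 25.6 in MC38, 56.9, 9.12 and 7.74 in Pan02, 8.28, 19.2 and 5.47 in LL2 and 1.90, 1.27 and 1.03 in EO771. EO771 was below every other tumor, and B16 was high throughout but overlapped Pan02 tumor 1. Its log2 fold change was 2.54 in B16 (SE 0.45, adjusted p = 0.000236) and -4.17 in EO771 (SE 0.71, adjusted p = 0.000262), and in MC38, at 1.17 (SE 0.48), it missed the threshold (adjusted p = 0.0539) but was 1.56 without Pan02 tumor 1 (adjusted p = 0.000473) and 1.34 without LL2 tumor 2 (0.0258). In Pan02 the change was 0.96 (adjusted p = 0.101) and became 1.34 without Pan02 tumor 2 (0.037), 1.39 without Pan02 tumor 3 (0.025) and 1.13 without LL2 tumor 2 (0.0497).

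Car12 was scarce, and its changes ran opposite to those of Car9 in B16, EO771 and MC38 but not in LL2 and Pan02. It measured 2.25, 2.59 and 2.63 RPKM in EO771, 4.11, 1.32 and 1.14 in Pan02 and 0.186 to 1.28 in the other models. EO771 was called higher (log2 fold change 1.52, SE 0.42, adjusted p = 0.00811), Pan02 too (1.30, SE 0.42, adjusted p = 0.0169), and B16 lower (-1.52, SE 0.53, adjusted p = 0.0223). The Pan02 call rested on tumor 1, without which the change was 0.44, and B16 lost its call without B16 tumor 1 (-1.59, adjusted p = 0.0569) or tumor 2 (-1.14, adjusted p = 0.11). In MC38 the change of -1.09 (adjusted p = 0.0854) became -1.89 without MC38 tumor 1 (adjusted p = 0.0199).

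Ndrg1, a gene of stress and differentiation that hypoxia induces (chr15:66929318-66969641), and Egln3 were the 2 response genes with all B16 tumors below all others, an order that 12.2% of all genes had. Ndrg1 measured 22.4, 32.9 and 18.1 RPKM in B16, 91.1, 63.0 and 87.7 in MC38, 181, 133 and 142 in EO771, 161, 309 and 99.2 in LL2 and 640, 241 and 218 in Pan02. The B16 change was -2.80 (SE 0.42, adjusted p = 5.57e-05) on the log2 scale. Pan02 was higher by 2.08 (SE 0.30, adjusted p = 5.23e-05), or by 1.38 without its first tumor, and LL2 and EO771 overlapped (adjusted p = 0.572). LL2, at 0.89, passed 2-fold without LL2 tumor 3 (1.2) or Pan02 tumor 1 (1.07).

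Adm, which encodes the vasodilator adrenomedullin (chr7:110627657-110629820), was the marker of LL2. It measured 122, 204 and 60.6 RPKM there, 62.8, 44.8 and 51.2 in EO771, 15.4 to 28.8 in B16 and Pan02 and 12.4, 3.54 and 4.74 in MC38. MC38 was below all other tumors, and LL2 was above them except that LL2 tumor 3 overlapped EO771. The log2 fold change was 2.59 in LL2 (SE 0.30, adjusted p = 1.59e-05) and -2.68 in MC38 (SE 0.43, adjusted p = 0.000158), or -3.43 without MC38 tumor 1. In EO771 it was 0.98 (adjusted p = 0.021), just short of 2-fold, but between 1.01 and 1.17 without B16 tumor 2, EO771 tumor 2, LL2 tumor 2, MC38 tumor 1, Pan02 tumor 1 or Pan02 tumor 3. Mxi1, an antagonist of Myc, had the same ends, with 70.8, 89.9 and 56.9 RPKM in LL2 and 21.1, 13.7 and 15.4 in MC38, and log2 fold changes of 1.29 (SE 0.15) and -1.35 (SE 0.18).

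MC38 was higher in Ankrd37, an ankyrin repeat gene, with 28.1, 30.9 and 24.6 RPKM, which overlapped Pan02 (28, 13.8 and 25.6) and lay above the other models (8.12 to 15.3). The log2 fold change was 1.14 (SE 0.19, adjusted p = 0.000287). Ddit4, an inhibitor of mTORC1, was also highest in MC38 (212, 244 and 199 RPKM, log2 fold change 0.96, SE 0.20), with Pan02 tumor 1 at 230 between them, and passed 2-fold without that tumor (1.08). Of the mitophagy receptors, Bnip3 was lower in EO771 (30.0, 19.9 and 23.4 RPKM against 32.2 to 76.9, log2 fold change -1.10, SE 0.25), a call lost at -0.974 without EO771 tumor 2 and at -0.996 without LL2 tumor 2, and Bnip3l ranged only from 16.3 to 31.7.

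Higd1a, a small mitochondrial protein, measured 40.4, 33.5 and 28.1 RPKM in B16 and 9.17 to 24.2 elsewhere, and its log2 fold change of 1.00 (SE 0.18, adjusted p = 0.000309) was at the 2-fold threshold, falling to between 0.865 and 0.997 without B16 tumor 1, EO771 tumor 2 or 3, LL2 tumor 3, MC38 tumor 1 or Pan02 tumor 2. Ero1l, an oxidase of protein folding, was highest in LL2 tumor 2 at 92.8 RPKM, and the LL2 change of 0.72 (SE 0.25, adjusted p = 0.032) was 1.02 without LL2 tumor 3.

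Tumors of 1 model also differed from each other in the hypoxia genes. Of the 13 response genes, Pan02 tumor 1 was the highest of its model in 11, LL2 tumor 2 in 10, EO771 tumor 1 in 10, MC38 tumor 1 in 10 and B16 tumor 1 in 8, while LL2 tumor 3 was the lowest in 12 (28.4% of all genes). Over all tested genes these tumors were the highest of their model in 40.7%, 33.5%, 37.6%, 30.8% and 25.6%, respectively. Each tumor was picked as the one most often highest (or lowest) in these genes, which raises its count, so no test was made. Ndrg1, Car9, Car12, Adm and Ero1l carried the widest gaps. In 3 of these tumors (Pan02 tumor 1, LL2 tumor 2 and MC38 tumor 1) the muscle markers exceeded 1000 CPM, but so they did in LL2 tumor 3 and MC38 tumor 3; their part in the spread was not tested. Across all 39 genes Pan02 tumor 1 and EO771 tumor 1 were each highest in 30.

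**Figure D3:**
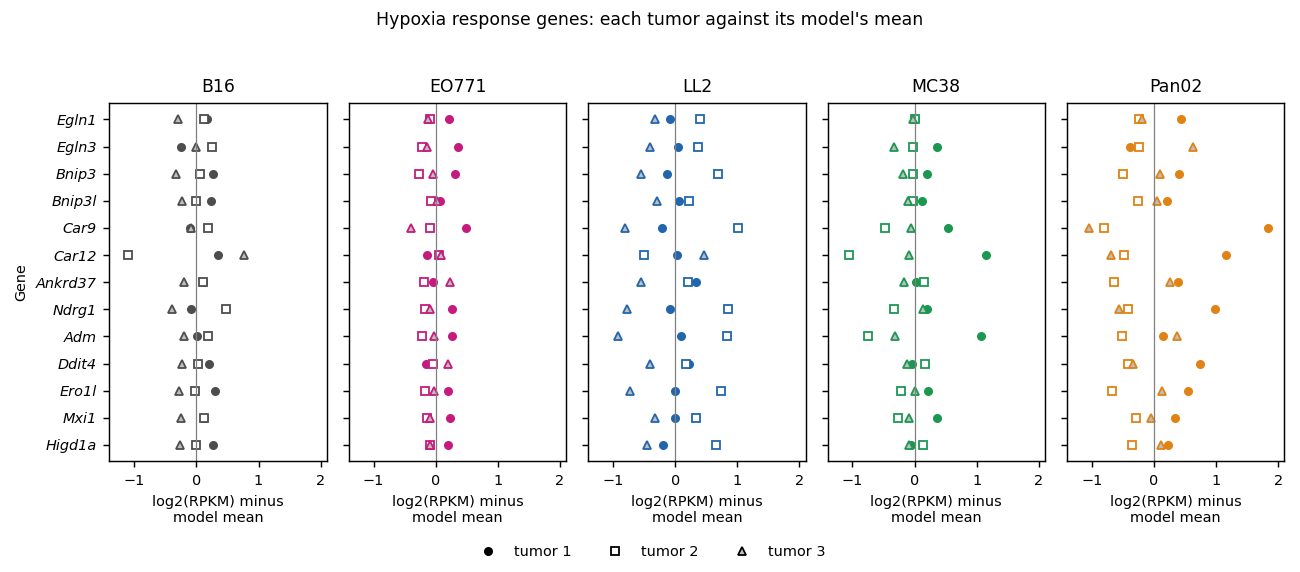
The 13 genes of the hypoxia response in each tumor as log2 RPKM minus the mean of its own model, 1 point per gene. In Pan02 tumor 1 and LL2 tumor 2 most genes lie above 0, and in LL2 tumor 3 and B16 tumor 3 most lie below.

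Isoforms were also compared within each tumor. For 12 pairs, log2 ratios of RPKM + 1 in each model were compared with those of the remaining 12 tumors. The 60 comparisons used exact permutation tests, 2-sided and over every split of 3 against 12, whose smallest possible p is 0.0022. Of these, 11 had an adjusted p under 0.05. B16 tumors had more Ldhb relative to Ldha (by 4.32 on the log2 scale, adjusted p = 0.0147), more Slc2a3 relative to Slc2a1 (1.71, 0.0147), more Aldoc relative to Aldoa (1.70, 0.036), less Pfkm relative to Pfkl (-1.28, 0.0147) and less Egln3 relative to Egln1 (-4.21, 0.0147). All 3 B16 tumors lay beyond all 12 others in each of these 5 ratios. With a pseudocount of 0.1 in place of 1, 10 of the 11 passed, and Aldoc relative to Aldoa in B16 (1.94) did not.

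**Figure D4:**
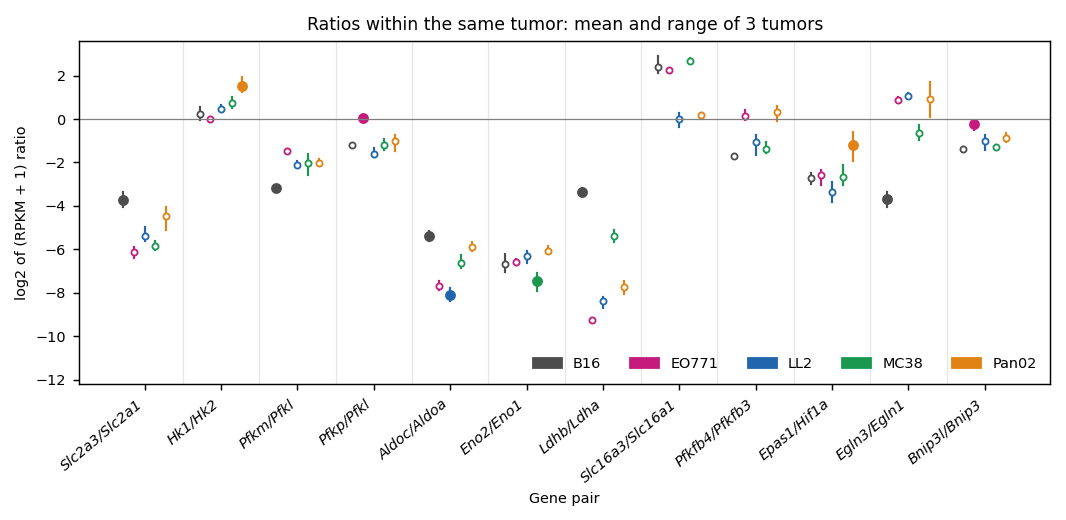
Log2 ratios of 12 isoform pairs in the 5 tumor models, as the mean and range of 3 tumors. Larger filled points have an adjusted p under 0.05 against the other 12 tumors, and the B16 points of Ldhb to Ldha and of Egln3 to Egln1 lie farthest from the rest.

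The other 6 ratios that passed belonged to other models. Pan02 tumors had more Hk1 relative to Hk2, the inducible hexokinase (1.18 above the others, adjusted p = 0.0147), so that Hk1 was 74.6% of the summed RPKM of both in Pan02 and 50.3% to 62.4% elsewhere, and more Epas1 relative to Hif1a (1.65, 0.0147). EO771 tumors had more Pfkp, the platelet type phosphofructokinase, relative to Pfkl (1.28, 0.0147), with Pfkp at 43.0% of the 3 phosphofructokinase transcripts against 21.1% to 28.4% in the other models, and more Bnip3l relative to Bnip3 (0.89, 0.0147). LL2 tumors had less Aldoc relative to Aldoa (-1.71, 0.026) and MC38 tumors less Eno2 relative to Eno1 (-1.05, 0.0147). Slc16a3 relative to Slc16a1 was lowest in LL2 (0.02 against a mean of 1.87 in the others) but did not pass (adjusted p = 0.066), Pan02 having nearly the same ratio (0.18).

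In the CAF libraries, whose values are the authors' RPKM and were tested as log2(RPKM + 1) with limma, 32 of the 39 genes differed between the 4 models (background 80.4% of 13598 genes). The 7 that did not were Pfkm, Aldoa, Pgam1, Eno1, Pkm, Epas1 and Egln1. Called by the same rule against the mean of the other 3 models, EO771 CAFs had 6 genes higher and 4 lower (background 8.05% and 7.06%), LL2 CAFs 1 and 2 (3.89% and 5.13%), MC38 CAFs 7 and 7 (10.9% and 9.87%) and Pan02 CAFs 3 and 6 (9.73% and 8.41%). Among these calls the 17 glycolytic enzymes had 1 higher and 2 lower in EO771, 0 and 1 in LL2, 2 and 0 in MC38 and 1 and 2 in Pan02, and no model had the highest mean in more than 8 of them. The epithelial marker levels given above differ between these models too, and their part in the CAF results was not tested.

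Lactate genes again led. Ldhb measured 33.5 and 33.4 RPKM in MC38 CAFs, 2.21 and 1.98 in LL2, 1.28 and 0.746 in EO771 and 0.422 and 0.119 in Pan02. MC38 was far above and Pan02 below every other library, and all neighbours in this order differed. The log2 fold change was 4.12 in MC38 (SE 0.15, adjusted p = 6.23e-06) and -2.24 in Pan02 (SE 0.15, adjusted p = 2.63e-05), and since the pseudocount shrinks low values these were 5.18 and -3.67 with 0.1 added instead of 1. Slc16a3 stood at 209 and 235 in EO771, 215 and 177 in MC38, 35.1 and 33.8 in LL2 and 5.29 and 3.25 in Pan02, and the Pan02 fold change of -4.48 (SE 0.16, adjusted p = 2.57e-06) was the widest of any member in CAFs on this scale, but not with 0.1 added, where that of Ldhb in MC38 was wider. Slc16a1 was low in MC38 alone, at 9.05 and 8.83 RPKM against 43.1 to 51 (log2 fold change -2.28, SE 0.09, adjusted p = 7.4e-06).

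Among the genes of uptake and upper glycolysis, Slc2a1 and Aldoc were called in CAFs of more than 1 model. Slc2a1 measured 173 in both EO771 libraries, 121 and 144 in LL2, 65.6 and 62.3 in MC38 and 42.9 and 31.1 in Pan02, without overlap, and was called higher in EO771 (1.34, SE 0.14) and lower in Pan02 (-1.61, SE 0.14). Slc2a3 was low in MC38 (0.872 and 0.273, log2 fold change -1.12, or -0.838 without MC38 library 6) and overlapped Pan02 (1.10 and 0.715), both below EO771 and LL2 (3.09 to 3.69). Aldoc was high in MC38 (13.5 and 15.6) and Pan02 (12.2 and 12) and low in EO771 (1.91 and 2.52) and LL2 (1.38 and 0.919), and each model was called, with log2 fold changes of 1.79, 1.47, -1.24 and -2.02 (SE 0.14). Further calls were Gapdh, with the caution given above, and the flux regulator Pfkfb3 (10.7 and 9.69 RPKM against 2.60 to 5.29) in EO771, both higher with 1.12, and Eno2 in Pan02, which was lower at 2.93 and 2.79 RPKM (-1.17).

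In MC38 CAFs the 13 response genes gave 4 higher and 4 lower calls (background 10.9% and 9.87%), and of the oxygen-sensing genes Egln3 and Hif1a were called while Egln1 and Epas1 did not pass the test between models. Egln3 measured 10.4 and 16.4 RPKM in MC38 against 56.5 to 78.7 in the other 6 libraries (log2 fold change -2.23, SE 0.18, adjusted p = 7.45e-05). Hif1a itself was 15.6 and 17.0 in MC38 and 28.3 to 50.5 elsewhere (-1.15, SE 0.10, adjusted p = 9.09e-05), and Mxi1 7.81 and 8.41 against 21.8 to 39.8 (-1.77, SE 0.11). Ndrg1 was lowest in MC38 (41.3 and 34.6, -1.68) and highest in Pan02 (297 and 207, 1.90, SE 0.16), with EO771 and LL2 between (69.9 to 103). Both MC38 libraries lay below all others for 6 of the 39 members, these 4 with Slc16a1 and Bnip3l, an order that 19.8% of all genes had.

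Other response genes were higher in MC38 CAFs. Car9 measured 41.8 and 43.8 RPKM in MC38, 20.1 and 11.7 in Pan02, 2.33 and 2.58 in LL2 and 1.14 and 1.15 in EO771, an order without overlap in which all neighbours differed, and the MC38 log2 fold change was 3.15 (SE 0.18, adjusted p = 2.53e-05). Pan02 was higher by 1.25, or 0.89 without its library 3. Ankrd37 stood at 30.3 in both MC38 libraries against 4.76 to 11.7 (1.92, SE 0.22), Higd1a at 46.7 and 32.8 against 10.2 to 28 (1.29, SE 0.15), and Ddit4 at 264 and 195, overlapped by Pan02 library 3 at 279 (1.02, SE 0.32). The Ddit4 call was lost without library 1, 4, 5, 7 or 8. Adm ran the other way from EO771 (60.2 and 60.4, log2 fold change 1.90) through LL2 (32.1 and 42.3) and MC38 (17.3 and 9.37) to Pan02 (9.64 and 5.76, -1.90, SE 0.25).

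Several CAF calls rested on low values or on 1 library. Car12, at 0.191 to 6.15 RPKM, was higher in EO771 (1.39, adjusted p = 0.0116) but not without EO771 library 1 (1.24, 0.0987) or 2 (1.55, 0.0558), and lower in MC38 (-1.14, adjusted p = 0.0216) but at -0.61 without MC38 library 6, -0.97 without Pan02 library 3 and -1.11 without LL2 library 7. The single gene higher in LL2 CAFs, Mxi1 (35.7 and 39.8 RPKM, 1.01), fell under 2-fold without EO771 library 2, Pan02 library 4, MC38 library 5 or LL2 library 8. Epas1 in MC38 CAFs measured 16.6 in library 5 and 4.4 in library 6, and its change of -0.51 (adjusted p = 0.275) was -1.36 without library 5. Within LL2 CAFs library 8 was the higher of the pair for 33 of the 39 members, and for 72.3% of all genes.

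Tumors and CAFs of a model were set side by side over the 4 models both tables hold, with tumor contrasts that leave out B16. By these contrasts EO771 tumors had 2 members higher and 5 lower (background 8.46% and 14.9%), while the counts were 2 and 4 for LL2 (6.65% and 8.9%), 3 and 7 for MC38 (10.7% and 9.66%), and 5 and 1 for Pan02 (18.1% and 8.67%). Genes called in both tables changed in the same direction in all cases: 6 members in EO771 of 7 called in tumors and 10 in CAFs (Aldoc, Ldhb, Slc16a3, Car9, Car12 and Ankrd37), 2 in LL2 of 6 and 3 (Aldoc and Mxi1), 8 in MC38 of 10 and 14 (Slc2a3, Ldhb, Slc16a3, Egln3, Car9, Car12, Ndrg1 and Mxi1) and 4 in Pan02 of 6 and 9 (Aldoc, Slc16a3, Car9 and Ndrg1). This was near the background, since 94.5%, 99.6%, 99.1% and 91.2% of all genes called in both tables did the same. Among these members, the CAF calls of Car12, Mxi1 in LL2, Slc2a3 in MC38 and Car9 in Pan02 were lost without single libraries. Car9 in Pan02 tumors was called with B16 left out (1.70) but not with B16 included (0.96). Ldhb in MC38 had a log2 fold change of 3.71 in tumors and 4.12 in CAFs, Egln3 in MC38 -1.76 and -2.23, and Car9 in EO771 -3.77 and -2.66. Slc16a3 in Pan02 measured -1.97 in tumors and -4.48 in CAFs. Krt8 levels of the CAF libraries (492 to 495 RPKM in EO771, 84.2 to 90.5 in LL2, 0.241 to 0.274 in MC38 and 385 to 545 in Pan02) had the same order of medians as those of the tumors (667 to 702, 101 to 160, 1.60 to 30.5 and 461 to 729), and their part in these values was not tested.

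**Figure D5:**
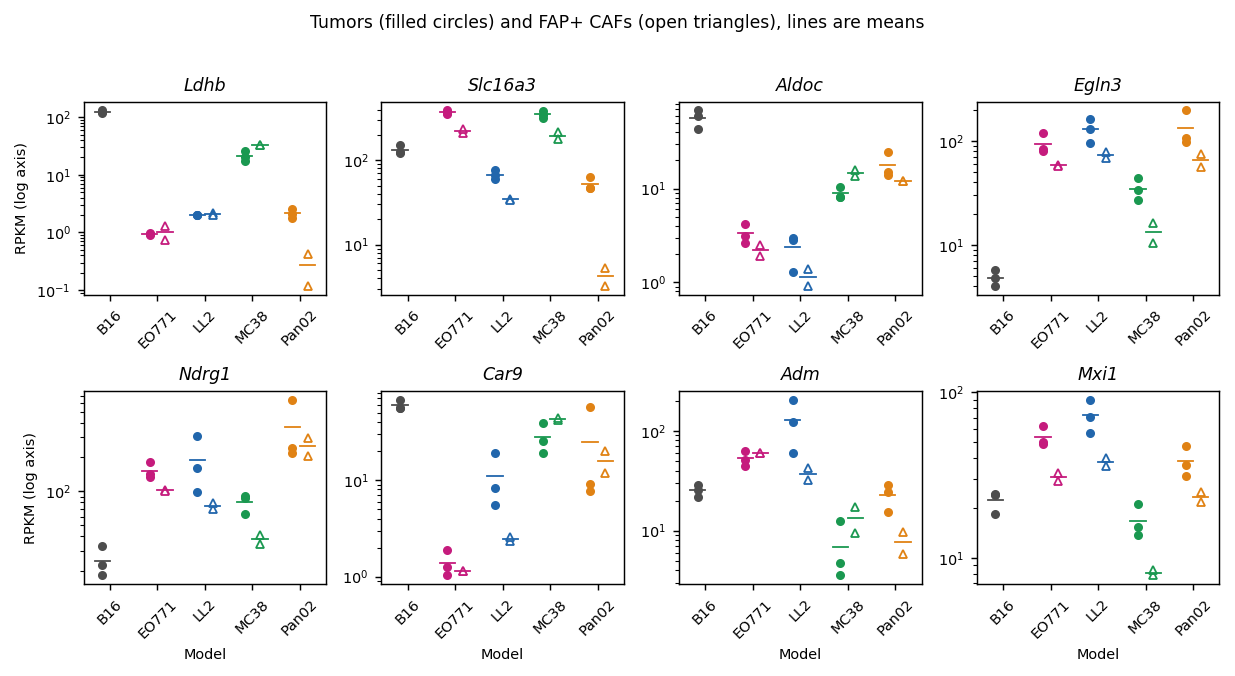
RPKM of 8 genes on a log axis in tumors (filled circles) and CAFs (open triangles) of each model, 1 point per library, with lines at the means; B16 has no CAF libraries. Ldhb stands highest in B16 and MC38, Slc16a3 falls to 3.25 to 5.29 RPKM in Pan02 CAFs, and Car9 is lowest in EO771 in both tissues.

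Opposite directions were rarer. Eno2 in MC38 was lower in tumors (log2 fold change -1.09, SE 0.25) and higher in CAFs (0.88, SE 0.13). Slc2a3 in Pan02 was higher in tumors (0.55) and lower in CAFs (-0.72), and Slc16a1 in Pan02 lower in tumors (-0.46) and higher in CAFs (0.65), all at adjusted p under 0.05 and short of 2-fold but for the first. The tables were normalized separately, for Eno2 they also used different transcripts, and these differences between them were not tested.

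Genes around the pathway were read from lists of their own. Of 30 genes of mitochondrial respiration, all 30 differed between tumor models, where 91.1% of all genes did. B16 had 7 higher and 0 lower (background 13.1% and 19.6%, median log2 fold change 0.48), while Pan02 had 0 higher and 5 lower (18.8% and 7.93%, median -0.47). Ogdh, of the citric acid cycle, measured 89.2 ± 5.59 RPKM in B16 (mean ± SD, n = 3) and 27.8 ± 1.77 to 39.7 ± 0.377 elsewhere, and Cox7a2, of cytochrome c oxidase, 180 ± 2.80 in B16 and 57.1 ± 7.79 in Pan02. Suclg1, which makes succinyl-CoA ligase, was highest in EO771 (119 ± 4.95) and lowest in Pan02 (35.4 ± 3.57).

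Of 22 further glycolysis genes, 20 passed the filter and 19 differed, again near the 91.1% of all genes. Unlike the member enzymes, more of these 20 were called lower than higher in B16, with 3 higher and 7 lower (background 13.1% and 19.6%). EO771 had 3 and 3 (9.71% and 13.7%) and LL2 1 and 2 (8.51% and 8.29%). For MC38 the counts were 6 and 1 (11.2% and 8.24%), and for Pan02 4 and 4 (18.8% and 7.93%). Tigar, which lowers fructose 2,6-bisphosphate, fell to 3.22 ± 0.197 RPKM in Pan02 from 20.0 ± 1.12 in EO771 (log2 fold change of Pan02 -2, SE 0.09). Pfkfb1 was highest in MC38 (4.72 ± 0.465 against means of 0.691 to 2.07), and Hkdc1, a further hexokinase, reached 1.90 ± 0.158 in EO771 and at most 0.737 in any other tumor. Of 30 further hypoxia genes, 29 passed the filter and 26 differed, also near that share. Stc2, a secreted glycoprotein, measured 19.0 ± 1.36 RPKM in MC38 and 24.7 ± 4.04 in Pan02 and at most 1.18 in any other tumor, and Gbe1, the glycogen branching enzyme, ran from 30.0 ± 5.74 in B16 to 1.99 ± 0.176 in EO771. P4ha1, a collagen prolyl hydroxylase, was lowest in EO771 (24.3 ± 0.992, log2 fold change -1.25, SE 0.09). It was also lower in B16, by less than 2-fold (42.2 ± 6.16, log2 fold change -0.26, SE 0.09).

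All 7 genes of the pentose phosphate pathway, which draws on the same glucose 6-phosphate, differed between tumor models, and 1 was called, Rpia, lower in Pan02 (12.9 ± 3.53 RPKM, log2 fold change -1.29, SE 0.15). Tkt was highest in EO771 (166 ± 3.12) and Pgd in MC38 (169 ± 2.06). In CAFs 26 of the 30 respiration genes, 12 of 12 tested glycolysis genes, 24 of 28 hypoxia genes and 6 of 7 pentose phosphate genes differed, beside 80.4% of all genes. The respiration genes had 2 higher calls and 0 lower in EO771 (background 8.05% and 7.06%) and 0 higher and 4 lower in Pan02 (9.73% and 8.41%).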

How the data were processed

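Whole-tumor RNA and RNA of sorted FAP+ CAFs was measured by poly(A) sequencing, with groups taken from the sample labels. The tumor table that the authors deposited holds expected counts for RefSeq transcripts, which take steps of 0.5 and are not normalized. Reads had been aligned to mm10 by STAR 2.5.0c and counted by HOMER over exons, on both strands. For CAFs the authors deposited RPKM from the same alignment and counting. Reads from overlapping or antisense genes cannot be told apart. Of 40458 transcripts in each table, 2 without a gene name (2.08e-05% of counts) were left out, and 5 columns of other samples were not used. The members and lists were chosen with earlier results of these data known.

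Rounded-up tumor counts of the 15722 genes that passed filterByExpr were scaled with TMM, and edgeR 4.0.16 was fitted with 1 term per model and its quasi-likelihood test. Tumor RPKM are TMM-scaled CPM divided by transcript length. For CAFs, limma 3.58.1 with a variance trend was fitted to log2(RPKM + 1) of 13598 genes that reached 1 RPKM in 2 or more libraries. The tables were tested separately, with Benjamini-Hochberg adjustment over all tested genes. All 39 members are described by role, and of each further list the 3 genes with the smallest adjusted p between tumor models are named. Transcript windows of 50 bases were searched for in other genes. CAF depth was estimated from the step between low values, and 100% of the checked values were whole multiples of it within 0.1. edgeR on these recovered reads found 12036 of 15519 genes to differ between CAF models.

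Alternatives were DESeq2 1.42.0, total-count scaling, a median of ratios, other filters, a pseudocount of 0.1, a mean over transcripts, a replicate block, an adjusted p alone and leaving out each library. The recovered reads, the tumors with over 1000 CPM of muscle markers and the contrasts without B16 were chosen after seeing the data. Tests were first run on simulated data. R 4.3.3 and Python 3.11.15 were used, with numpy 2.4.6 for permutation tests and pandas 2.3.3 for tables.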

Additional observations from a re-analysis of the deposited data

How the results depend on the processing

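Of the 48 tumor calls of single members, 39 held under every alternative and 9 were lost under at least 1, and of the 36 CAF calls 30 held and 6 were lost. No call changed direction under any alternative run. Beyond single left-out libraries, the losses were Higd1a in B16 tumors (0.993 with total-count scaling), Bnip3 in EO771 tumors and Car12 in B16 and Pan02 tumors (-0.993, -0.941 and 0.806 without the muscle-marked tumors), and in CAFs Ddit4 in MC38 (0.95 to 1.02), Car12 in MC38 (-1.14 and -1.71) and Mxi1 in LL2 (0.971 with the mean over transcripts).

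By an adjusted p under 0.05 alone, the calls of members rose to 110 in tumors, with 21 higher and 9 lower in B16, 12 and 11 in EO771, 9 and 8 in LL2, 4 and 13 in MC38 and 8 and 15 in Pan02. In CAFs they rose to 87, with 18 higher and 8 lower in EO771, 8 and 8 in LL2, 11 and 14 in MC38 and 8 and 12 in Pan02. In tumors the shares of all genes by this rule, higher and lower, were 31.9% and 31.6% in B16 and 27.2% and 27% in EO771. They were 23.3% and 18.9% in LL2, 27% and 24.4% in MC38 and 32.5% and 28.1% in Pan02. In CAFs they were 24.5% and 27.9% in EO771, 14.7% and 18.3% in LL2, 28.6% and 31.3% in MC38 and 27.1% and 26.5% in Pan02. Members higher in MC38 tumors were 5 with total-count scaling and 5 without the muscle-marked tumors, instead of 3. Members higher in LL2 CAFs, 1 as reported, were 4 with recovered reads, 3 with a pseudocount of 0.1 and 0 with the mean over transcripts.

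Leaving out 1 tumor at a time gave 3 to 6 members higher in LL2 tumors (6 without LL2 tumor 3). It gave 3 to 5 higher in MC38 tumors and 4 to 8 lower in Pan02 tumors (5 and 8 without Pan02 tumor 1). Of the ratios 5 to 10 passed, and 5 when any 1 of the B16 tumors was left out. With fewer tumors there are fewer splits, so the smallest possible p is higher, most of all for the model that lost a tumor. The lower counts of ratios therefore cannot say whether the ratios are unstable. With 1 CAF library left in a model, that library was assumed to vary like the other groups. The cause of the shifts in member calls was not tested.

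For tumors with the same replicate number, deviations from the model means correlated from -0.165 to 0.263 over 30 pairs, 9 above 0.1. Pairs with unlike numbers were not compared, so this cannot say whether the numbers mark a pairing or batch. With the replicate number as a block 51 member calls were made, and 1 of the 48 was lost, Higd1a in B16 tumors (0.999). No paired analysis was possible because the CAF columns carry no replicate number. Without the 5 muscle-marked tumors 3 calls were lost and 53 were made. Precision is limited by 3 tumors and 2 CAF libraries per model.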
